A study of Gallus gallus with 4 samples.

Results

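Bone morphogenetic proteins (BMPs), activins and the secreted proteins that hold them back were measured in chick neural retina cultures grown with the drug DAPT or with its solvent DMSO. DAPT blocks γ-secretase, without which the Notch receptor cannot release its signalling domain into the cell. The group comprised 9 genes, the ligand genes BMP2, BMP4, BMP7, INHBA and INHBB and the antagonist genes FST, NOG, CHRD and GREM1. A probe belonged to it when its RefSeq transcript was one of these genes. That rule gave 11 of the 43603 non-control probes on the array and 7 of the 9 genes, namely 3 of 5 ligands and all 4 antagonists. BMP2 and BMP7 matched no probe and are not analysed here. BMP4, INHBB, FST and CHRD each had 2 probes, and INHBA, NOG and GREM1 had 1 each.

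DAPT-treated cultures (2 samples) received 10 µM DAPT, dissolved in DMSO, from day 2 of culture until RNA was taken on day 12, and DMSO cultures (2 samples) received the solvent alone over the same days. All 4 came from retinas of embryonic day 8 (stage 33), dissociated with trypsin, plated in medium with 10% serum and given fresh medium with DAPT or DMSO every 2 days. Each sample was hybridised to 1 one-colour Agilent chicken array, with 1 slide for the replicate 1 arrays of both groups and 1 slide for the replicate 2 arrays. Nothing in the labels ties the samples of a group to separate embryos or platings, so the p-values rest on a spread that may be technical.

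BMPs and activins are dimeric ligands of the TGF-β superfamily. They bring together type I and type II serine/threonine kinase receptors, which phosphorylate SMAD1, SMAD5 and SMAD9 for most BMPs and SMAD2 and SMAD3 for activins. Noggin, chordin and gremlin bind BMPs outside the cell, and follistatin binds activins tightly and some BMPs, so that each keeps its ligand from the receptors. In the chick eye BMP4 marks the dorsal retina, and activin signalling has been linked to the choice between pigmented epithelium and retina and to photoreceptor development.

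All 7 measured genes were well above background on all 4 arrays, and none of their spots was saturated or carried an outlier flag. The number of arrays limits the precision. Of 43803 non-control spots per array, 89.3% and 87.7% in DAPT and 85.7% and 87.2% in DMSO were well above background. Of a neural retina list, 12 genes were tested, with a median log2 fold change of 0.38. At an adjusted p under 0.05 in limma, which 25.5% of all features passed, 3 of them were higher and 2 lower in DAPT. In bulk RNA, fewer cells that make a transcript and less transcript per cell cannot be told apart.

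Of the 7 measured genes 5 were lower in DAPT and 0 higher at an adjusted p under 0.05 (limma, Benjamini-Hochberg adjustment over all 32294 features tested). Over all features, 25.5% passed, 13.1% as lower and 12.4% as higher. At an unadjusted p under 0.05, 6 of the 7 were lower and 1 was higher, and over all features 38.8% passed, 18.4% as lower and 20.5% as higher. The largest changes by far were in the activin branch, in INHBA and FST. The 7 genes had a median log2 fold change of -0.80, against 0.061 over all features.

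INHBA encodes the βA subunit of activin A. Its processed signal, a background-subtracted intensity, was 1548 and 1699 in DAPT, against 20319.5 and 26392 in DMSO. The groups were far apart, and INHBA was 13.4-fold lower in DAPT, with a log2 fold change of -3.74 ± 0.20 (SE, n = 2 arrays per group, adjusted p = 0.00165 in limma). Relative to each array's 75th percentile, its log2 signal was 0.16 ± 0.14 in DAPT and 3.90 ± 0.34 in DMSO (SD, n = 2). Among the 5049 genes tested under a symbol, 0.574% had a more negative fold change.

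INHBB encodes the βB subunit, which forms activin B or, with βA, activin AB. Its signal was 55.7 and 44.9 in DAPT, against 174 and 192 in DMSO. It was also lower in every DAPT array than in any DMSO array, by 3.42-fold and a log2 fold change of -1.77 ± 0.15 (adjusted p = 0.00387 in limma). Its second, dimmer probe was at -1.67, with 29.1 and 26.2 in DAPT and 84.9 and 104 in DMSO. The 95% intervals of the log2 fold changes of INHBA (-4.28 to -3.20) and INHBB (-2.18 to -1.37) did not overlap, and the difference between these genes was not tested.

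FST encodes follistatin, the activin-binding antagonist. Its signal was 69.1 and 57.3 in DAPT, against 1863 and 1659 in DMSO. FST therefore had the largest change among the measured genes, 26.1-fold lower in DAPT with a log2 fold change of -4.71 ± 0.12 (adjusted p = 9.06e-04 in limma). Its second probe was at -4.55, with 65.3 and 60.0 in DAPT and 1666 and 1465 in DMSO. Both FST probes thus showed a decrease of similar size. By size of decrease FST ranked 12 among the 5049 genes and INHBA ranked 30. A ligand subunit of activin and its main inhibitor were both among the genes with the largest decreases.

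**Figure D1:**
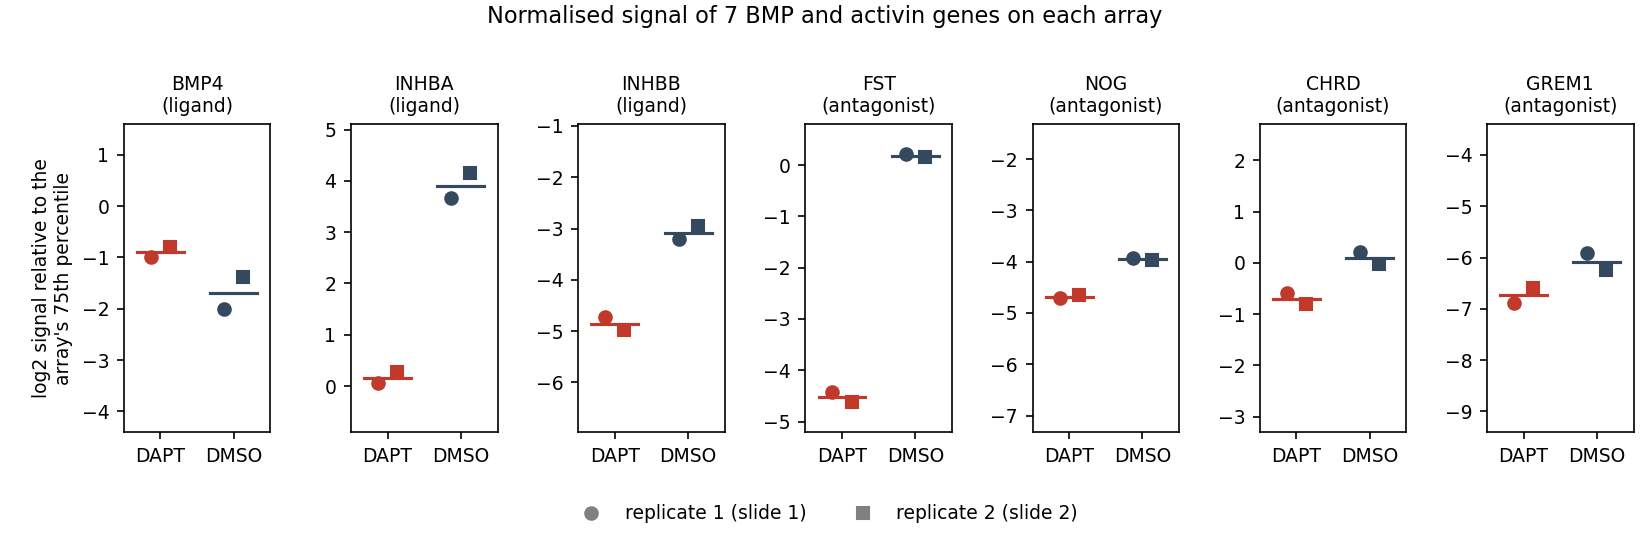
Log2 signal relative to the array's 75th percentile for each measured gene, with a panel per gene and every panel spanning the same number of log2 units; points are single arrays, circles replicate 1 and squares replicate 2, and lines are group means of 2 arrays. INHBA and FST show the widest gaps between DAPT and DMSO (log2 fold changes of -3.74 and -4.71), and BMP4 is the only gene with both DAPT arrays above both DMSO arrays.

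Among the BMP genes the differences were smaller. BMP4, the BMP ligand of the dorsal retina, had a signal of 749 and 808 in DAPT, against 401 and 569.9 in DMSO. Both DAPT arrays were above both DMSO arrays, by a log2 fold change of 0.80 ± 0.24 that did not pass (adjusted p = 0.0773 in limma). The DMSO arrays of BMP4 differed from each other more than those of any other measured gene, with a log2 SD of 0.43 (n = 2), against 0.13 in DAPT. Its second, dimmer probe had 468 and 475 in DAPT and 236 and 296 in DMSO. With every probe tested on its own, where 26.4% of probes passed, this probe did pass, at 0.93 ± 0.18 (adjusted p = 0.0240 in limma).

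The 2 slides bear on BMP4. Within slide 1 its log2 difference was 1.02 and within slide 2 it was 0.58. With the slide as a block, a fit in which 39.8% of all features passed, BMP4 passed with the same fold change (adjusted p = 0.0168 in limma). It also passed without DMSO replicate 2, at 1.11 (adjusted p = 0.0255), and did not pass without DMSO replicate 1, at 0.49 (adjusted p = 0.114). Over all alternatives its adjusted p lay between 0.0168 and 0.275.

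NOG encodes noggin, which binds BMP2, BMP4 and BMP7. Its signal was 56.3 on both DAPT arrays, against 106 and 95.8 in DMSO. NOG was lower in DAPT by 1.67-fold, with a log2 fold change of -0.74 ± 0.10 (adjusted p = 0.0115 in limma). It was the tightest of the 7 genes between replicates, with log2 SDs of 0.050 in DAPT and 0.026 in DMSO (n = 2).

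CHRD encodes chordin, a BMP antagonist that tolloid proteases cleave. Its signal was 982 and 807 in DAPT, against 1861 and 1479 in DMSO. The decrease was close in size to that of NOG, at -0.80 ± 0.14 (adjusted p = 0.0223 in limma) and 1.74-fold. Its second probe was at -0.76, with 626 and 565 in DAPT and 1174 and 983 in DMSO. The calls of NOG and CHRD were lost without DAPT replicate 1 (adjusted p = 0.103 and 0.0725) and without DAPT replicate 2 (adjusted p = 0.0942 and 0.144), and that of CHRD without DMSO replicate 1 (adjusted p = 0.0686).

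GREM1 encodes gremlin 1, a BMP antagonist of the DAN family. It was the dimmest of the 7 genes, with a signal of 12.6 and 14.7 in DAPT, against 26.5 and 19.6 in DMSO. Both DAPT arrays were below both DMSO arrays, but the log2 fold change of -0.65 ± 0.18 did not pass (adjusted p = 0.0653 in limma, and 0.0523 with the slide as a block). For comparison, the 153 negative control spots had a median signal of 1.09 and 1.24 in DAPT and 2.06 and 1.40 in DMSO. The brightest of these spots reached 1.83 and 10.1 in DAPT and 27.0 and 33.9 in DMSO, above GREM1 on both DMSO arrays. Within slide 1 GREM1 was at -0.96 and within slide 2 at -0.34. With normexp, another background correction, GREM1 shrank to -0.089 and NOG to -0.41.

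**Figure D2:**
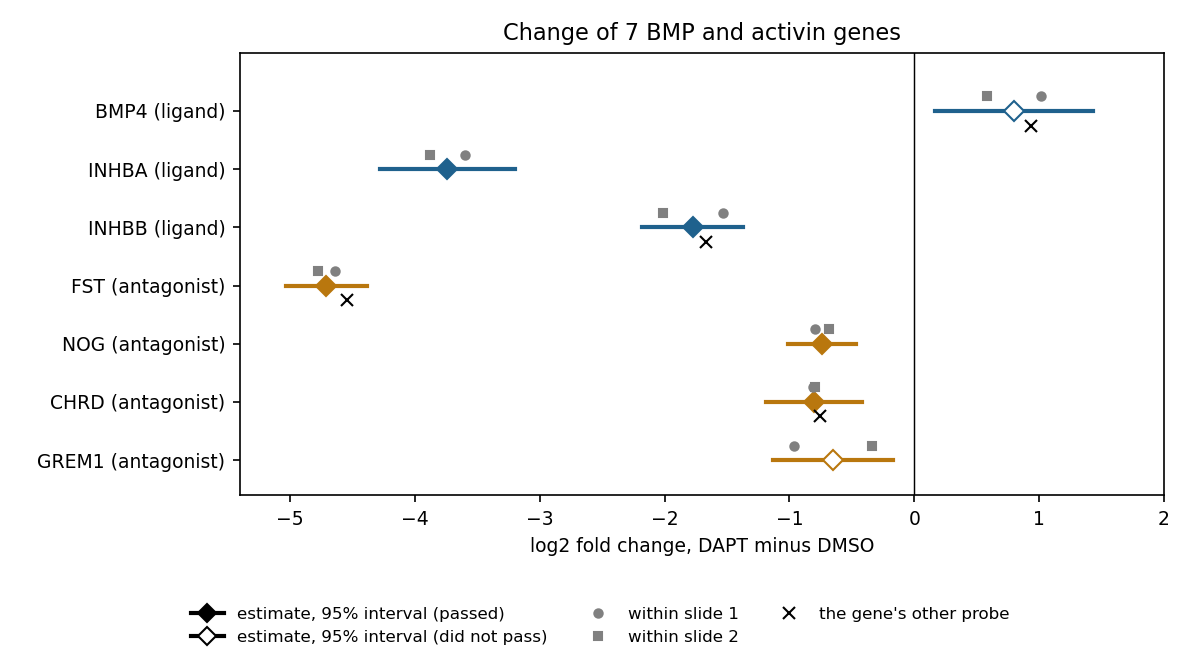
Log2 fold change, DAPT minus DMSO, for the measured genes, with 95% intervals from limma; filled diamonds passed at an adjusted p under 0.05 and open ones did not, grey points are the differences within each slide, and crosses are the second probe of genes with 2 probes. The second probes of BMP4, INHBB, FST and CHRD lie inside the interval of the first, and within both slides every gene kept its sign.

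All 4 antagonists and both activin subunits had DAPT arrays wholly below the DMSO arrays, and BMP4 had them wholly above. Groups of 2 arrays do not overlap for 65.6% of all features, so the lack of overlap alone says little about these genes. INHBA and FST stood out by size. By their place among the 5049 genes, 3.57% had a more negative fold change than INHBB, 10.3% than CHRD, 11.1% than NOG and 12.5% than GREM1, while 91.3% lay below BMP4.

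**Figure D3:**
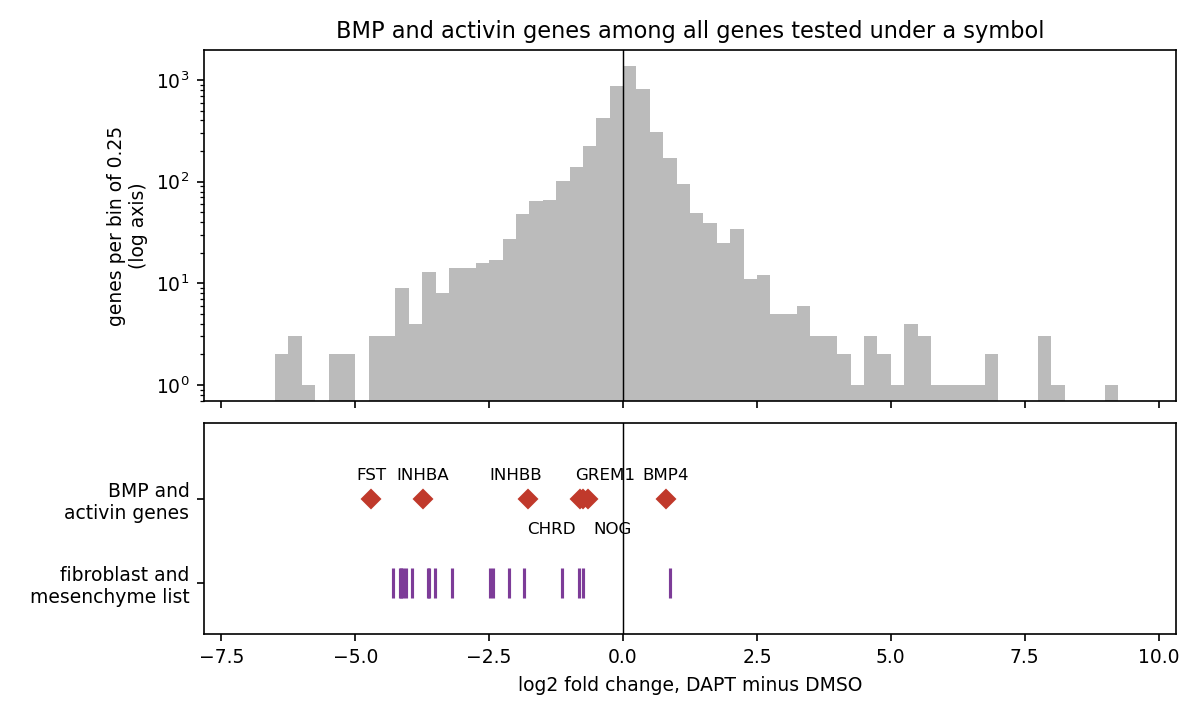
Upper panel, number of genes with a symbol (5049) by log2 fold change, DAPT minus DMSO, on a logarithmic count axis; lower panel, the 7 BMP and activin genes (diamonds) and the 18 tested genes of a fibroblast and mesenchyme marker list (bars). INHBA lies in the far left tail among the marker genes, FST lies left of all of them (their lowest is at -4.29), and CHRD, NOG, GREM1 and BMP4 lie closer to the bulk of genes.

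Levels of different probes cannot be compared, but a ligand and an antagonist can be followed as a ratio within each array. For the 12 pairs of measured ligands and antagonists, the log2 ratio was taken on each array relative to its DMSO mean. In 6 pairs the ratio was higher in DAPT and in the other 6 it was lower, without overlap between the groups in any pair. Single features lack overlap in 65.6% of cases, and no such share was computed for ratios. The 12 pairs are combinations of only 7 genes, so they are not independent. These ratios are derived from the same values as the fold changes and were not tested.

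BMP4 over noggin was at 1.49 and 1.59 in DAPT, against -0.33 and 0.33 in DMSO. BMP4 over chordin was at 1.40 and 1.80 in DAPT, against -0.42 and 0.42 in DMSO. BMP4 over gremlin 1 was at 1.51 and 1.39 in DAPT, against -0.47 and 0.47 in DMSO. The BMP4 ratio was thus higher against each BMP antagonist, by between 1.45 and 1.60 on average (log2), 2.73-fold to 3.03-fold. With normexp correction the changes of BMP4 over gremlin 1 and over noggin were smaller, at 0.80 and 1.13. BMP4 over chordin changed by 1.18 without DMSO replicate 1 and by 2.02 without DMSO replicate 2. BMP4 over follistatin changed most, at 5.32 and 5.70 in DAPT, against -0.34 and 0.34 in DMSO.

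For the activin subunits, the ratios over FST and those over the BMP antagonists changed in opposite directions. INHBA over FST was at 0.77 and 1.17 in DAPT, against -0.27 and 0.27 in DMSO, a mean change of 0.97 on the log2 scale. INHBB over FST was at 2.95 and 2.91 in DAPT, against -0.15 and 0.15 in DMSO, a mean change of 2.93. Both activin subunits fell less than follistatin did, INHBA 1.96-fold less and INHBB 7.64-fold less. Against noggin, chordin and gremlin 1, which bind BMPs, the sign turned. Mean changes were -3.09 to -2.94 for INHBA and -1.12 to -0.97 for INHBB. With normexp correction the change of INHBA over FST shrank to 0.14, and to 0.084 with quantile normalization as well. INHBB over chordin shrank to -0.29 with normexp correction and INHBB over noggin to -0.62.

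**Figure D4:**
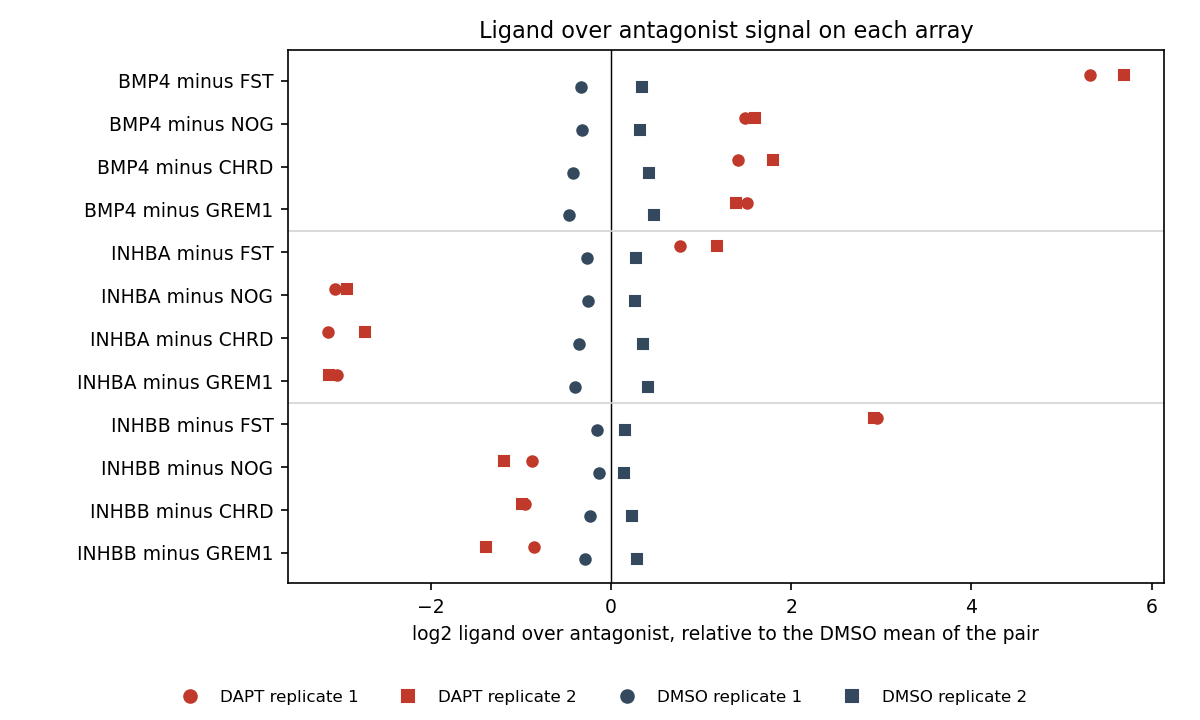
Log2 ratio of ligand over antagonist signal for 12 pairs on each array, centred on the mean of the DMSO arrays of that pair, with DAPT arrays drawn above the DMSO arrays in each row; circles are replicate 1 and squares replicate 2. All BMP4 ratios and both ratios over FST lie to the right of DMSO, and the other INHBA and INHBB ratios lie to the left.

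Markers of other cell types also differed between DAPT and DMSO, in both directions. In the fibroblast and mesenchyme list, 17 of 18 tested genes were lower in DAPT and 0 higher, with a median of -3.36; the exception was TAGLN, at 0.88 (adjusted p = 0.0581 in limma). Signals were also summed per list over its genes with a value on every array, tested or not. For this list the sum was 96.2 and 99.4 in DAPT, against 423 and 532 in DMSO, in units of each array's 75th percentile. Its tested markers were well above background on all 4 arrays, except DCN, which was so on only 1 of the 2 DAPT arrays. DCN, counted among the 17, passed the filter through DMSO alone. Its spot on DMSO replicate 1 was left out as an outlier, so its change of -1.14 rests on 1 DMSO array. There its signal was 11.3, under the brightest negative control spot of that array (33.9). COL1A2 and COL3A1, fibrillar collagens, were at -3.52 and -4.17. Lens markers went the other way, with 16 of 18 tested genes higher and summed signals of 666 and 703 in DAPT, against 24.8 and 19.8 in DMSO. Of these 16, SOX1 was not well above background in DMSO (signals of 2.69 and 1.47) and passed the filter through DAPT alone. For the neural retina list the sums were 78.7 and 77.5 in DAPT, against 71.9 and 58.8 in DMSO. Its members did not move one way, with PAX6, LHX2 and RLBP1 higher (0.57, 1.03 and 1.91) and the neuronal genes STMN2 and ELAVL4 lower (-2.07 and -1.59). Of the pigment epithelium list 7 of 8 tested genes were higher and 0 lower. Of these 7, TYR was well above background on only 1 of the 2 DMSO arrays and passed the filter through DAPT alone. Of the endothelium list 3 of 4 were lower and 0 higher, and of the microglia and macrophage list 1 of 4 was higher and 0 lower. These 2 lists had 9 and 10 entries, and most entries that were not tested matched no probe, so the counts cover only part of each list. For comparison with each marker list, 12.4% of all features passed as higher and 13.1% as lower. The part of these cell types in the changes of INHBA and FST was not tested.

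The genes most like INHBA in their profile over the 4 arrays, by root-mean-square difference of centred log2 values, were FN1 (0.080), PRRX1 (0.095), HAS2 (0.098), HAPLN1 (0.10) and CRIP1 (0.12). FN1 encodes fibronectin, PRRX1 a homeobox factor of mesenchyme, HAS2 a hyaluronan synthase, HAPLN1 a hyaluronan link protein and CRIP1 a small LIM protein. Their log2 fold changes ran from -3.71 to -3.62. Among the 5 genes most like FST were MMP27 (0.13), SLA (0.21), COL6A3 (0.26) and COL3A1 (0.27). These encode a matrix metalloproteinase, an adaptor related to Src, a chain of type VI collagen and type III collagen. FN1, PRRX1, COL6A3 and COL3A1 belong to the fibroblast and mesenchyme list. Over 4 arrays in 2 groups, any genes with a similar difference between the groups have similar profiles.

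Of 10 other ligand genes of the family that passed the filter on dim probes, 2 were lower and 0 higher, with a median of -0.14, where 25.5% of all features passed. At an unadjusted p under 0.05, 4 were lower and 1 higher, 5 of 10 against 38.8% of all features. INHA encodes the inhibin α subunit, which pairs with a β subunit to form inhibin, an antagonist of activin. Its signal was 27.8 and 27.2 in DAPT, against 192 and 151 in DMSO, a log2 fold change of -2.53 ± 0.13 (adjusted p = 0.00146 in limma). INHA thus fell together with both β subunits. With normexp correction its log2 fold change was -1.34. GDF9, an oocyte growth factor in mammals, had 21.3 and 27.5 in DMSO and was not well above background in DAPT. The brightest negative control spots reached 27.0 and 33.9 in DMSO, above GDF9 on both arrays. Its DAPT level was then set to the dimmest signal called well above background on each DAPT array. With that level GDF9 was at least 4.63-fold lower in DAPT, a bound that holds for the processed signals only. GDF9 passed the filter through DMSO alone, and it is 1 of the 2 calls and 1 of the 4 lower genes above. That call (adjusted p = 0.00199 in limma) used its own DAPT signals of 2.65 and 2.25, under that level, so it does not measure this bound. After normexp correction GDF9 was at -0.28 and missed the threshold (adjusted p = 0.0883). BMP15, LEFTY1, GDF3, GDF5, BMP3 and BMP5 lay between -0.41 and 0.32 and did not pass, though LEFTY1 did with the slide as a block (adjusted p = 0.0325). AMH was at 0.15 and did not pass, but 1 of its 2 probes passed on its own, at 1.49, where 26.4% of all probes passed. With the probes of each gene averaged, 3 genes of the list were called.

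Other extracellular modulators were mostly lower, 6 of 11 tested genes, with 1 higher and a median of -0.64. Over all features 13.1% passed as lower and 12.4% as higher. FSTL1, a secreted glycoprotein related to follistatin, had 1036 and 1034 in DAPT, against 3295 and 2999.8 in DMSO. At -1.51 ± 0.10 it had the largest change of this list (adjusted p = 0.00239 in limma), and all 3 of its probes passed. TLL1, a tolloid-like protease that cleaves chordin, was at -1.34 ± 0.15, with 770.1 and 704 in DAPT and 2323 and 1707 in DMSO. Both chordin and a protease that cleaves it were therefore lower in DAPT.

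BMPER, a chordin-like BMP-binding protein, was at -1.13 ± 0.23, CRIM1, a membrane-bound BMP-binding protein, at -0.82 ± 0.11, and CHRDL1, a chordin-like protein that in chick retina is ventral and opposes BMP4, at -0.80 ± 0.16. CHRDL1 was bright, with 4518 and 3983 in DAPT and 9336 and 6703 in DMSO. TWSG1, twisted gastrulation, which binds BMPs together with chordin, was at -0.64 ± 0.10. NBL1, a BMP antagonist of the DAN family, was the exception and rose by 0.62 ± 0.11, with 18208 and 15886 in DAPT and 12256 and 11444 in DMSO. So the BMP-binding proteins did not all move one way. Of the 7 called genes FSTL1 and TLL1 alone kept their calls without DAPT replicate 1 or DAPT replicate 2. BMPER also missed the threshold under all normexp and quantile settings (adjusted p = 0.0556 to 0.116), CHRDL1 with no filter on dim probes CHRDL1 and NBL1 without DMSO replicate 1, and BMPER, NBL1 and TWSG1 without DMSO replicate 2.

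Of 8 tested receptor genes 1 was higher and 1 lower, with a median of -0.19. This share is close to the 25.5% of all features that passed. ACVR2B, a type II receptor of activins, had 9968 and 10157 in DAPT, against 3565 and 2905 in DMSO, and rose by 1.74 ± 0.12 (adjusted p = 0.00259 in limma). Both of its probes passed, and it kept its call under every alternative run. ACVR2B was thus higher in the cultures in which the transcripts of activin subunits were lower. ACVR2A, of the same list, was at -0.13 (adjusted p = 0.444 in limma). ATVR1, listed in the gene table with the older symbol ACVR1, a type I receptor, was at -1.04 ± 0.10 (adjusted p = 0.00515), and at an adjusted p of 0.0521 without DAPT replicate 2. BMPR2, the type II BMP receptor, was at -0.61 ± 0.19 and did not pass (adjusted p = 0.0869, and 0.0129 with the slide as a block), whereas 3 of its 4 probes passed on their own. BMPR1A, BMPR1B and ACVR2A lay between -0.29 and -0.027 and did not pass.

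Among SMADs and their regulators 3 of 10 tested genes were lower and 1 higher, with a median of -0.16, where 25.5% of all features passed. SMAD6, the inhibitory SMAD of the BMP branch, was at -1.22 ± 0.22, with 1414 and 1594 in DAPT and 3151 and 4327 in DMSO. SKI and SKIL, which repress SMAD-driven transcription, were at -1.03 ± 0.13 and -0.71 ± 0.15. SMAD2, an effector of activin, rose by 0.65 ± 0.12, and all 4 of its probes passed. The effectors of BMPs did not pass, SMAD1 at 0.024 ± 0.12, SMAD5 at -0.34 ± 0.11 and SMAD9 at -0.20 ± 0.18. With the slide as a block SMAD5 passed (adjusted p = 0.0441), as did SMAD3 (0.33, adjusted p = 0.0467), so that 6 genes of the list were called with the block and 4 without it, and 2 of the 3 SMAD5 probes passed on their own. Every call in this list was lost without DAPT replicate 1 and without DAPT replicate 2 in turn, where limma left 0 of 10 genes past the adjusted threshold and 4 past an unadjusted p under 0.05. SMAD2 and SKIL also missed it without DMSO replicate 1 and without DMSO replicate 2.

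Genes known to respond to BMP signalling in other settings went both ways, with 3 of 13 tested genes higher, 4 lower and a median of 0.084. Of all features 12.4% passed as higher and 13.1% as lower. The homeobox genes MSX1 and MSX2 moved in opposite directions. MSX1 had 3208 and 3138 in DAPT, against 558 and 590.04 in DMSO (2.56 ± 0.12), while MSX2 had 12824 and 12979 in DAPT, against 40474 and 47504 in DMSO (-1.67 ± 0.15). The GATA factors were split as well, GATA3 at 1.80 ± 0.30 and GATA2 at -1.46 ± 0.11. ID2, an inhibitor of basic helix-loop-helix factors, rose by 1.46 ± 0.12, and the homeobox gene DLX5 was at -1.74 ± 0.19. SMAD6, given above, was the other gene that fell. ID1, ID3 and ID4 lay between 0.26 and 0.53 and did not pass, though ID1 did with the slide as a block (adjusted p = 0.0207). Tested on their own, 1 of 2 ID1 probes and 1 of 3 ID4 probes passed, where 26.4% of all probes did. The ID4 probes ran from 0.27 to 0.69. With the probes of each gene averaged, 9 genes of the list were called. TBX5, a factor of dorsal retina that BMP4 induces in chick, was at -0.41 ± 0.12 and did not pass either (adjusted p = 0.0807, and 0.0254 with the slide as a block). GATA3 missed the threshold without DAPT replicate 1 and without DAPT replicate 2.

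In the list of genes that respond to activin or TGF-β through SMAD2 and SMAD3, 6 of 10 tested genes were lower and 0 higher, with a median of -0.77. As lower, 13.1% of all features passed. At an unadjusted p under 0.05, which 38.8% of all features passed, 7 were lower and 1 higher. The 6 include INHBA and SKIL, already given, so the list is not independent of the activin subunits. CDKN2B, an inhibitor of cyclin-dependent kinases, was at -2.56 ± 0.17, with 3367 and 3004 in DAPT and 18213 and 22134 in DMSO. PMEPA1, which dampens SMAD activation, was at -1.38 ± 0.11, CCN2, a matricellular protein, at -1.30 ± 0.12, and CDKN1A, another kinase inhibitor, at -0.82 ± 0.12. TAGLN, an actin-binding protein of smooth muscle, was at 0.88 ± 0.23 and did not pass (adjusted p = 0.0581, and 0.0172 with the slide as a block). CDKN1A missed the threshold without DAPT replicate 1 and without DAPT replicate 2.

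**Figure D5:**
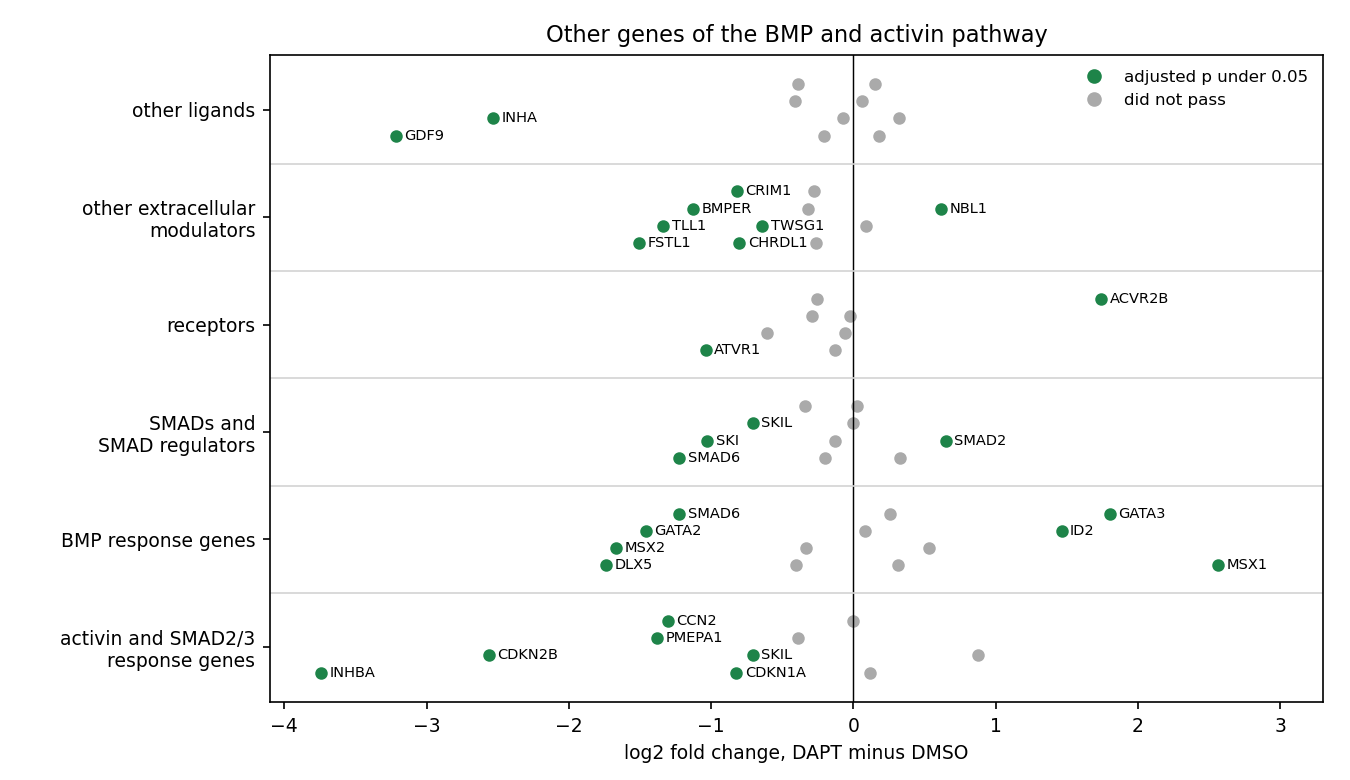
Log2 fold change, DAPT minus DMSO, of every tested gene in 6 lists of the BMP and activin pathway; green points with a name passed at an adjusted p under 0.05, grey points did not, and height within a row is arbitrary. Extracellular modulators and the activin and SMAD2/3 response genes lie mostly left of 0, while BMP response genes lie on both sides, from -1.74 for DLX5 to 2.56 for MSX1.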

How the data were processed

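Total RNA of 2 DAPT and 2 DMSO cultures was hybridised to 1-colour Agilent arrays, 100 ng per sample, per the labels' protocols. Scanner files were made with Agilent Feature Extraction 11.5.1.1, whose processed signal is an intensity after background subtraction, per the file headers. In the value table that the authors deposited, each intensity is multiplied by 1 factor per array (1.41 to 1.51), so it gives the same values after scaling. Column medians of that table were 350 and 336 in DAPT and 380.4 and 359 in DMSO, and what set the factors is not given in the sources used here.

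Control and outlier-flagged spots were left out. Processed signals were taken to log2, scaled to the 75th percentile of their array and averaged per probe. RefSeq accessions were named through a table of GRCg7b genes, without coordinates, since the array refers to an older build (11935 of 43603 probes, 5382 genes). A gene was represented by its probe of highest mean signal, and unnamed probes were features of their own. A feature was tested if at least 1 group had it well above background on both of its arrays (32294 of 37050). DAPT was compared with DMSO in limma 3.58.1 under R 4.3.3, adjusted by Benjamini-Hochberg, with a threshold of 0.05 and no block. Same-numbered arrays share a slide, and their deviations from the group means correlated at 0.583 across features. The smallest two-sided p that exact permutation allows with 2 arrays a group is 0.333. Named were all measured members, called list genes up to 6 per list, and the 5 genes most like INHBA and FST, of which 1 is not reported here. PAX6, LHX2, RLBP1, STMN2, ELAVL4, TAGLN, DCN, COL1A2, COL3A1, NBL1 and list genes that did not pass were named after their values were seen. Members and lists were chosen with earlier results of these data known. The fit was run on simulated data with independent noise, few changed features and no slide effect. That run therefore does not cover the correlation within slides or the large share of features called here.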

Additional observations from a re-analysis of the deposited data

How the results depend on the processing

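The fold changes of all 7 BMP and activin genes kept their sign under every alternative run, as did all 12 ligand and antagonist ratios. FST, INHBA and INHBB also kept their calls throughout. With normexp correction and the 75th percentile, INHBB shrank to -1.03, FST to -3.84, INHA to -1.34 and GREM1 to -0.089. BMP4 gained a call with a trended, robust prior, with its probes averaged, with the slide as a block and without DMSO replicate 2 (adjusted p = 0.0466, 0.0461, 0.0168 and 0.0255). With the replicate block, which is the slide, 12864 features passed, against 8225 without it, and 6 of the 7 members, against 5. Leaving out 1 array at a time gave 3 to 6 members, 3067 to 6224 features, 2 to 5 extracellular modulators, 1 to 2 receptors and 0 to 2 SMAD genes. Asking for at least a 2-fold change as well left 3 members, 3862 features (12.0%), 3 modulators and 2 SMAD genes. Other ligands fell to 1 with normexp and the percentile and to 1 when all 4 arrays had to be well above background. Counts of BMP and activin response genes stayed within 1.5 times. The cause of these shifts was not tested. Leaving out an array also makes the sample smaller, and the part of that was not tested either. Median and percentile scaling cannot see a change in total RNA per cell. With 2 arrays per group, calls of differences of the size of NOG or CHRD depend on which arrays are kept, and signals as dim as GREM1 depend on the background correction.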
